A study of Homo sapiens with 6 samples.

Results

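The ATF and C/EBP stress transcription factors described here are 10 genes: ATF4, DDIT3, ATF3, JDP2, ATF5, ATF2, CEBPB, CEBPG, CEBPD and CEBPA. They were taken by symbol from a fixed list of basic leucine zipper (bZIP) factors and read from every probe set annotated to a single one of these symbols, which gave 20 of 41091 such probe sets and 10 of 19775 genes. They were followed over 6 Affymetrix U133 Plus arrays of HMLE cells, an immortalised human mammary epithelial line. The Twist line carried a pBabe retrovirus encoding Twist, whose expression turns epithelial into mesenchymal cells, and the Ctrl line carried a pBabe retrovirus for a hairpin against GFP. Both lines grew in the same medium with insulin, hydrocortisone and EGF, and each was treated with Cmp302, a code-named compound, at 5 µM or 10 µM, or with the solvent DMSO. These levels and a time of 6 h stand in the protocol, while other labels of the same samples give 2 µM with times of 4 h and 8 h, so whether the levels differ in dose or in time is not settled and the arrays are named by their titles. Each of the 6 groups had 1 array, and the labels do not say whether a line is a clone, so differences between single arrays have no replicate check and carry no error.

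The members bind DNA as dimers through a basic region and a leucine zipper. When eIF2-alpha is phosphorylated under amino acid shortage, ER stress or other strain, general translation falls while ATF4 protein is made from a pre-existing mRNA, and ATF4 then switches on DDIT3 (CHOP), ATF3 and genes of amino acid supply. CHOP lacks a canonical basic region, pairs with C/EBP proteins and with ATF4, and is linked to cell death when stress lasts. C/EBP-beta and C/EBP-delta carry acute inflammatory responses, C/EBP-gamma is a short partner of ATF4, and C/EBP-alpha is tied to differentiation and growth arrest. The mRNA of a factor that is controlled by translation, such as ATF4 or ATF5, tells only part of its activity, and arrays do not measure the protein.

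The site bound by ATF4 with a C/EBP partner, the C/EBP-ATF composite element, is shown where the letters TGATGNAAN occurred on either strand from 250 bases before to 50 after an annotated start, because members of the set carry these letters near a start. Of the 10 members, 8 had RefSeq entries (GRCh38.p14, 17 starts in all), and the letters were found at 3 of these 17 starts (17.6%), 1 in each of 3 genes, against 3.61% of all 35116 starts searched. Since the element is shown because members carry it, and others were searched too, this share is a description and not a test. The windows below run 5′ to 3′ on the strand of the gene, with the element in capitals.
CEBPG, chr19:33374061-33374089, element at -42 to -34 from the start: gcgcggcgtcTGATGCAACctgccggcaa
JDP2, chr14:75427996-75428024, element at -16 to -8 from the start: tagccggggcTGATGCAACccgtcccgcc
ATF3, chr1:212565206-212565234, element at -191 to -183 from an upstream start: aaggtcaggaTGATGGAAGgctgtcatat
CEBPG and JDP2 held the same 9 letters close to a start, and ATF3 a different version farther out. The cAMP response element TGACGTCA, its variant TTACGTCA and the ER stress element were found in 0 of the 8 members, against 2.25%, 0.513% and 0.0916% of 27305 genes. Beside such low shares these counts say nothing particular about the members. The C/EBP letters TTGCNNAA were found at 3 of the 17 starts (17.6%), in ATF3 and ATF5, against 10.5% of all starts. A match is a description of these letters, and windows without one say nothing of a factor.

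Signals are log2 units. The floor, the median of all values, lay at 3.71, and between 11646 and 11841 genes lay above it on each array. TWIST1 had signals of 11.57, 11.96 and 11.35 on the Twist-line arrays (DMSO, 5 µM, 10 µM) and 10.70, 10.51 and 10.48 on the Ctrl-line arrays; whether its probes read the viral transcript is not known here. Of 6 epithelial markers 3 lay above the floor in the Twist line, with a summed linear signal of 377 to 719, and all 6 in the Ctrl line, with 43700 to 56172; of 6 mesenchymal markers all 6 and 5 lay above it. CDH1, EPCAM and KRT5, which define epithelial cells, were under the floor on every Twist-line array. Of 9 blood, endothelial and fat cell markers 2 or 3 lay above the floor on each array. Their summed signals were 1803 to 2237 in the Twist line and 289 to 368 in the Ctrl line. FABP4 and PECAM1 were above the floor on all 6 arrays, and CD14 on 4. FABP4 was higher in the Twist line by 2.71, 3.035 and 2.848 log2 units (DMSO, 5 µM, 10 µM). PECAM1 was higher there by 3.59, 3.375 and 3.738. CD14 had a difference of -0.82 under DMSO. PTPRC, CD3E, HBB, VWF, CDH5 and ADIPOQ were under the floor on all 6. The 3′ to middle contrast of the GAPDH and ACTB controls, which reads RNA integrity, averaged 0.955, 0.355 and 0.445 log2 units on the Twist DMSO, 5 µM and 10 µM arrays and 0.28, 0.45 and 0.835 on those of the Ctrl line. The highest contrast was thus on the Twist DMSO array, from which all compound changes of the Twist line are taken, and its part in the results below was not tested beyond the values given.

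All 10 members were above the floor on at least 2 arrays and entered the tests, and 9 were above it on all 6. CEBPA alone lay under it on the 3 Twist-line arrays. Of the 20 probe sets, 15 were above the floor on all arrays, 2 on some and 3 on none. The plot of signals by array shows each member in both lines.

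**Figure D1:**
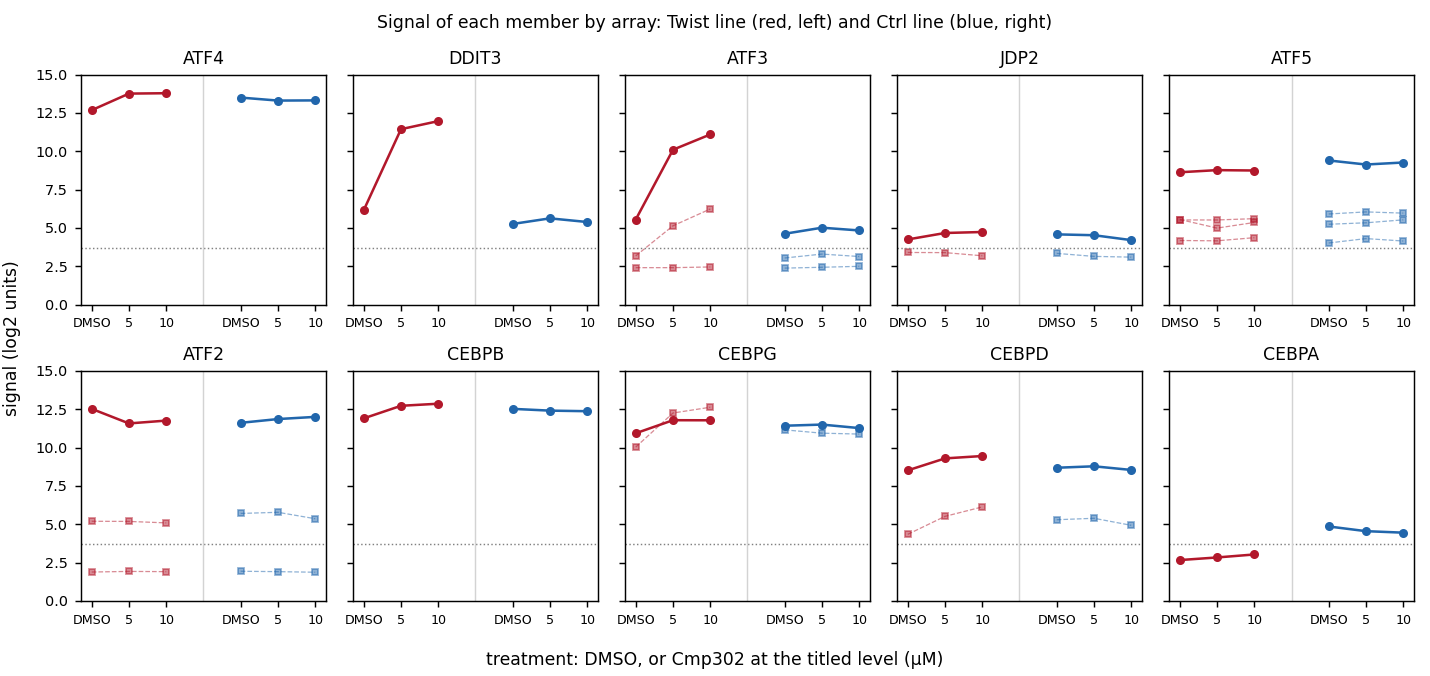
Log2 signal (y axis) of the 10 members on the 6 arrays (x axis, DMSO, 5 µM and 10 µM Cmp302), with the Twist line in red at the left of each panel and the Ctrl line in blue at the right; solid lines with circles are the probe set read for the gene, dashed lines with squares its other probe sets, and the dotted line is the floor at 3.71. DDIT3 and ATF3 climb steeply in the Twist line, and the Ctrl-line changes from DMSO are within 0.403 log2 units for every member read.

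In the Twist line DDIT3 and ATF3 stood far above their DMSO value with Cmp302, while most other members stood at less than 2-fold from theirs. At 5 µM, 3 of 9 measured members were higher by at least 2-fold, against 4.41% of 11868 measured genes (9.36% in either direction), and at 10 µM it was again 3 of 9, against 8.04% of 11931 (16.5% in either direction). The same 3 genes, DDIT3, ATF3 and ATF4, made up both counts. No measured member was 2-fold lower at either level, against 4.95% and 8.46% of genes. The median change of the members was 0.82 and 0.935 log2 units, beside 0.00 and -0.005 over all measured genes. In the Ctrl line 0 of 10 members passed 2-fold in either direction at either level, where 0.125% and 0.459% of genes did, with medians of 0.01 and -0.148.

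ATF4, the activator at the head of the pathway, had signals of 12.68, 13.76 and 13.78 in the Twist line (DMSO, 5 µM, 10 µM) and 13.50, 13.30 and 13.31 in the Ctrl line. The Twist DMSO array was the lowest of the 6, and the treated Twist-line arrays were the highest. The change from DMSO was 1.08 and 1.105 log2 units in the Twist line, 2.11-fold and 2.15-fold, and -0.195 and -0.183 in the Ctrl line. ATF4 was already bright on every array, and most of its Twist-line change was present at 5 µM, with a further step of 0.025 to 10 µM. Subtracting each gene's slope on the 3′ contrast over the Ctrl-line arrays gave changes of 0.919 and 0.968, under 2-fold. Over these arrays the contrast rose with the level (0.28, 0.45 and 0.835). The slope, here and below, thus cannot be told apart from the Ctrl-line change with Cmp302.

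DDIT3, which encodes CHOP, had signals of 6.16, 11.44 and 11.96 in the Twist line and 5.26, 5.62 and 5.38 in the Ctrl line. The treated Twist-line arrays stood apart from the other 4, which lay within 0.90 of each other. The changes of 5.28 and 5.80 log2 units were the highest of all measured genes at both levels, whereas the Ctrl-line changes were 0.365 and 0.127. Of the Twist-line change at 10 µM all but 0.525 was present at 5 µM.

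ATF3, a stress-induced factor that mostly represses as a homodimer, had signals of 5.55, 10.10 and 11.09 in the Twist line and 4.62, 5.01 and 4.83 in the Ctrl line. Its order over the arrays was that of DDIT3, with the 3 Twist-line arrays above the 3 of the Ctrl line. Its changes of 4.55 and 5.54 log2 units, or 23.4-fold and 46.7-fold, ranked 7th of 11868 and 3rd of 11931 genes. The step between the levels was 0.995, the widest of any member. A second ATF3 probe set was under the floor on the 4 other arrays and reached 5.14 and 6.23 on the treated Twist-line arrays, changes of at least 1.425 and 2.52. A further ATF3 probe set stayed under the floor on all 6 arrays.

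JDP2, the closest relative of ATF3 and like it a repressor of AP-1 and ATF sites, kept near the floor throughout, although its promoter held the composite element shown above. The probe set read for JDP2 had signals of 4.25, 4.67 and 4.73 in the Twist line and 4.58, 4.52 and 4.20 in the Ctrl line. The lines overlapped, and the changes were 0.42 and 0.485 in the Twist line and -0.055 and -0.373 in the Ctrl line. With the 3′ contrast slope subtracted the Twist-line changes of JDP2 were 0.0006 and 0.129. The profiles of ATF3 and JDP2 were thus unlike on the probe sets read for them, with JDP2 near the floor.

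ATF5, which like ATF4 is translated under stress, had signals of 8.63, 8.77 and 8.74 in the Twist line and 9.40, 9.13 and 9.26 in the Ctrl line. On the probe set read for the gene the lines did not overlap, and the compound changes were 0.14 and 0.115 in the Twist line and -0.265 and -0.133 in the Ctrl line. With the 3′ contrast slope subtracted the Twist-line changes of ATF5 were 0.0555 and 0.0431. Its 3 other probe sets had Twist-line changes from -0.56 to 0.185. The lines overlapped on some of them, for example at 4.99 to 5.55 in the Twist line and 5.24 to 5.52 in the Ctrl line.

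ATF2, which is activated by phosphorylation by stress kinases and not chiefly through its mRNA, was the member that went the other way. It had signals of 12.53, 11.58 and 11.76 in the Twist line and 11.62, 11.86 and 12.00 in the Ctrl line, with changes of -0.95 and -0.765 in the Twist line and 0.245 and 0.387 in the Ctrl line. Here the Twist DMSO array was the highest of the 6, and with the 3′ contrast slope subtracted the Twist-line changes were -0.566 and -0.438. Another ATF2 probe set, with signals of 5.09 to 5.78, had Twist-line changes of -0.01 and -0.105, so the lower values rest on the brighter probe set.

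Of the C/EBP genes, CEBPB (C/EBP-beta) had signals of 11.91, 12.73 and 12.86 in the Twist line and 12.53, 12.41 and 12.37 in the Ctrl line. The Twist DMSO array was the lowest and the treated Twist-line arrays were the highest, as for ATF4. The changes were 0.82 and 0.955 log2 units in the Twist line, 1.77-fold and 1.94-fold, and -0.115 and -0.153 in the Ctrl line.

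CEBPG (C/EBP-gamma) was read by a pair of probe sets that disagreed on size. The one read for the gene had signals of 10.94, 11.79 and 11.78 in the Twist line and 11.43, 11.50 and 11.27 in the Ctrl line, changes of 0.85 and 0.845 in the Twist line. The other had 10.04, 12.26 and 12.63 in the Twist line and 11.16, 10.94 and 10.88 in the Ctrl line, changes of 2.22 and 2.595, or 4.66-fold and 6.04-fold. Both placed the Twist DMSO array lowest and the treated Twist-line arrays highest. Whether CEBPG counts as past 2-fold therefore depends on the probe set.

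CEBPD (C/EBP-delta) also differed between probe sets. The one read for the gene had signals of 8.52, 9.30 and 9.45 in the Twist line and 8.69, 8.78 and 8.54 in the Ctrl line, changes of 0.78 and 0.935. The dimmer one had 4.35, 5.52 and 6.13 in the Twist line and 5.30, 5.39 and 4.93 in the Ctrl line, changes of 1.17 and 1.785. On both probe sets the treated Twist-line arrays were the highest of the 6. With the 3′ contrast slope subtracted, the Twist-line changes were 0.67 and 0.83 for CEBPB, 0.65 and 0.68 for CEBPG and 0.59 and 0.77 for CEBPD.

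CEBPA (C/EBP-alpha) had signals of 4.86, 4.55 and 4.45 in the Ctrl line and lay under the floor, at 2.67, 2.84 and 3.03, on every Twist-line array. No compound change can be read for it in the Twist line, and in the Ctrl line the changes were -0.305 and -0.403.

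**Figure D2:**
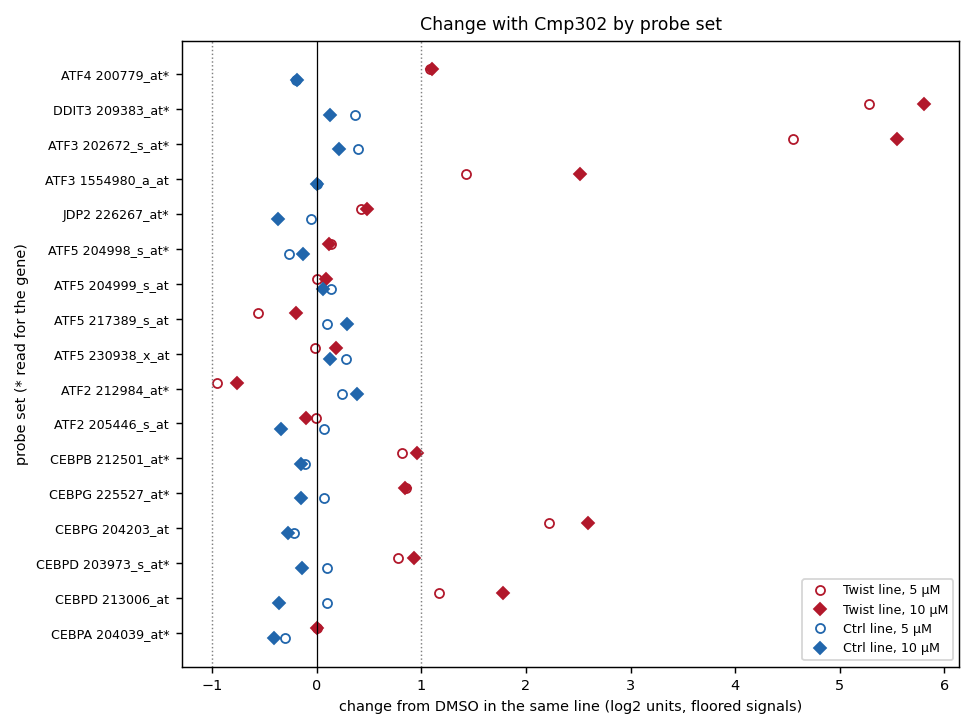
Change from DMSO of the same line (x axis, log2 units, signals under the floor set to it) for the 17 member probe sets above the floor on any array (y axis, a star marks the one read for the gene); red is the Twist line, blue the Ctrl line, open circles 5 µM, filled diamonds 10 µM, and dotted lines mark 2-fold. The starred probe sets of DDIT3 and ATF3 lie beyond 4 log2 units in the Twist line, the second ATF3 probe set at 1.425 and 2.52, the CEBPG probe set without a star lies at 2.22 and 2.595, and all Ctrl-line points lie within 2-fold.

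The trend over the levels was tested with limma on all 6 arrays, with line, level (coded 0, 1 and 2) and their interaction, which leaves 2 residual degrees of freedom. Each SE of this fit comes from the bend of the profiles away from a straight line, not from replicates. In the Twist line 4 of 10 members rose and 0 fell at an adjusted p of 0.05, where 10.9% of 12478 genes rose and 11.3% fell, 22.3% in all. DDIT3 rose by 2.90 ± 0.58 log2 units per level (SE, adjusted p = 0.0281) and ATF3 by 2.77 ± 0.44 (adjusted p = 0.019) in this limma fit. CEBPB rose by 0.48 ± 0.11 (limma, adjusted p = 0.0374) and ATF4 by 0.55 ± 0.15 (limma, adjusted p = 0.0472). CEBPD had a slope of 0.47 (adjusted p = 0.0524), CEBPG of 0.42 (0.07), JDP2 of 0.24 (0.0784), ATF2 of -0.38 (0.121) and ATF5 of 0.06 (0.759) in the same limma fit. The profiles of most members bend after 5 µM, and with the levels coded 0, 1 and 1 the limma fit called 7 members, 6 higher and 1 lower, against 33.5% of genes (15.6% higher and 17.9% lower), adding CEBPG (0.85 ± 0.14, adjusted p = 0.0124), CEBPD (0.86 ± 0.20, adjusted p = 0.0259) and, downward, ATF2 (-0.86 ± 0.14, adjusted p = 0.0118). This second coding takes the 5 µM and 10 µM arrays of a line as 1 condition. Its SEs come from the steps between these arrays, which differ in level and are not replicates. With each probe set fitted on its own on the first coding, where 20.1% of 29283 were called, the second probe set of CEBPG (adjusted p = 0.0266) and that of CEBPD (adjusted p = 0.0193) passed in limma while ATF4 did not (adjusted p = 0.0538). Without the Ctrl DMSO, Ctrl 5 µM, Ctrl 10 µM, Twist DMSO or Twist 10 µM array limma called 0 members, and 0 of all genes in each of these fits with 1 array fewer. Without the Twist 5 µM array it called 5 members, against 27.3% of genes.

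In the Ctrl line 0 of 10 members were called by limma, as were 0 of 12478 genes (0%), and 1 member, CEBPA, had an unadjusted p under 0.05, as did 7.51% of genes, with a slope of -0.20 ± 0.06 log2 units per level (limma, adjusted p = 0.621). CEBPA stood at the floor on the 3 Twist-line arrays, so its SE holds no spread from that line and is too small. The other slopes ran from -0.19 for JDP2 to 0.19 for ATF2. The difference of the slopes, Twist minus Ctrl, was called for 0 of 10 members, against 1.54% of genes (192 of 12478, with 0.745% higher and 0.793% lower), and 8 members had an unadjusted p under 0.05 where 39.5% of genes did. It was 2.84 ± 0.82 for DDIT3 (limma, adjusted p = 0.0675), 2.66 ± 0.62 for ATF3 (0.055), 0.64 ± 0.21 for ATF4 (0.0807) and 0.55 ± 0.16 for CEBPB (0.0678). With the levels coded 0, 1 and 1 limma called the difference for 6 members, 5 higher and 1 lower, against 26.6% of genes (12.6% higher and 13.9% lower). These were DDIT3 (5.30 ± 0.40), ATF3 (4.74 ± 0.59) and ATF4 (1.28 ± 0.13) at an adjusted p of 0.017 each, CEBPB (1.02 ± 0.16, 0.0176), CEBPG (0.89 ± 0.20, 0.0291) and, downward, ATF2 (-1.17 ± 0.19, 0.0184). These SEs again come from the steps between 5 µM and 10 µM, not from replicates. Whether the lines differ in the response of these genes by this test thus turns on how the levels are coded. Without the Twist 5 µM array the fit on the first coding called 5 members, against 19.7% of genes, and without any other single array 0 members and 0 of all genes.

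Setting the lines side by side at each treatment does not use the Twist DMSO array except at DMSO. Under DMSO 0 of 10 members were higher in the Twist line by 2-fold, against 11.9% of 12510 genes, and 1, CEBPA, was lower, against 13.6% (25.4% in either direction). DDIT3 was higher by 0.90, ATF3 by 0.93 and ATF2 by 0.91 log2 units, and the differences were -0.82 for ATF4, -0.77 for ATF5, -0.62 for CEBPB, -0.49 for CEBPG and -0.17 for CEBPD. CEBPA had a difference of at most -1.145. The stress-induced pair was thus above, and most other members below, their Ctrl-line value before any compound.

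At 5 µM 2 of 10 members were 2-fold higher in the Twist line, against 12.1% of 12454 genes, and at 10 µM it was 2 again, against 14.8% of 12484. None was 2-fold lower, where 12.6% and 14.1% of genes were, so that 24.7% and 28.9% of genes differed in all. DDIT3 had differences of 5.81 and 6.58 log2 units between the lines and ATF3 of 5.08 and 6.26. The differences of ATF4 were 0.455 and 0.468, of CEBPB 0.315 and 0.488, of CEBPG 0.285 and 0.508 and of CEBPD 0.515 and 0.908. For DDIT3 and ATF3 the gap to the Ctrl line at each level was thus wider than the change from the Twist DMSO array, whereas for ATF4, CEBPB, CEBPG and CEBPD it was narrower. The second CEBPG probe set gave 1.315 and 1.748. Of the 9 members above the floor on all arrays, 5 (ATF4, ATF5, CEBPB, CEBPG and CEBPD) had their lowest signal on the Twist DMSO array, against 25.2% of 10787 genes, and 6 their highest on the Twist 10 µM array, against 24.1%.

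**Figure D3:**
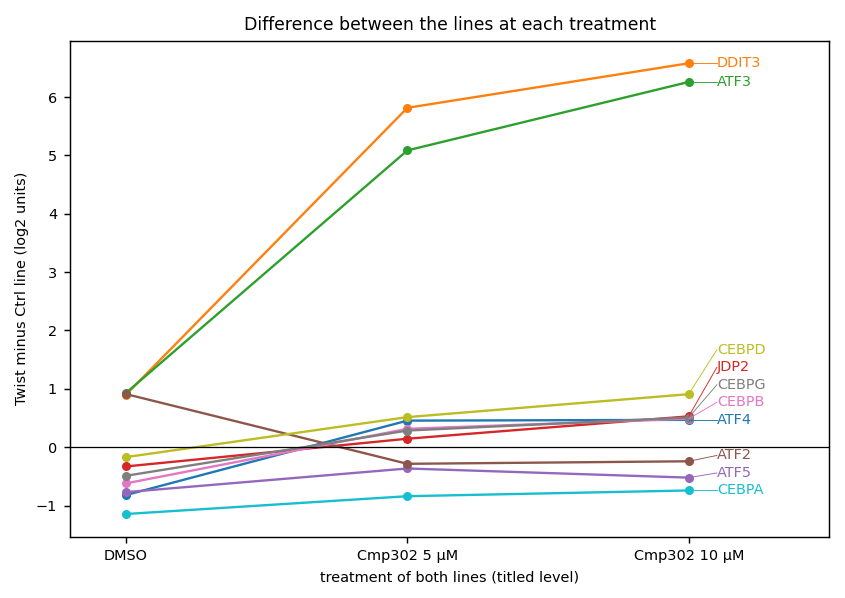
Difference between the lines (y axis, Twist minus Ctrl, log2 units, signals under the floor set to it) at DMSO, 5 µM and 10 µM Cmp302 (x axis), 1 line per member; the CEBPA points are upper bounds. DDIT3 and ATF3 go up to 6.58 and 6.26 at 10 µM, ATF4, CEBPB, CEBPG, CEBPD and JDP2 cross from below to above 0, and ATF2 crosses the other way.

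With treatment as a factor and the 3 treatments as pairs of arrays, limma called 3 of 10 members between the lines, against 28.5% of 12478 genes (13.7% higher and 14.9% lower), a share near the background. DDIT3 was higher by 4.43 ± 1.11 log2 units (SE, limma, adjusted p = 0.0355) and ATF3 by 4.09 ± 1.01 (limma, adjusted p = 0.0337) in the Twist line, averages that mix a small gap under DMSO with wide ones on Cmp302. With the median over probe sets the ATF3 difference was 1.315 (limma, adjusted p = 0.0874) and was not called. The third call was CEBPA, which entered the test through its Ctrl-line arrays alone and stood at the floor on every Twist-line array, so its direction was fixed and its call is not read as a test. In these bulk samples fewer cells with a transcript and less of it per cell cannot be told apart. ATF5 had a difference of -0.55 ± 0.21 (adjusted p = 0.117) and the other 6 lay between 0.03 and 0.42 in the same limma fit. Without the DMSO pair 8 members were called, with ATF4, CEBPB, CEBPG and CEBPD higher and ATF5 lower in addition, but so were 61.2% of 12345 genes in that fit of 4 arrays.

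Genes known as targets of ATF4 and CHOP, from a list of 26 symbols of which 24 were measured in the Twist line, followed the members there. At 10 µM 16 of 24 were 2-fold higher (8.04% of all genes) and 0 lower, and at 5 µM 15 (4.41%) and 0, with medians of 1.785 and 1.39 log2 units. The limma trend called 17 of 24 as rising (10.9% of all genes) and 0 as falling (11.3%) in the Twist line and 0 of 24 in the Ctrl line (0% of genes), where the medians were -0.065 at 5 µM and -0.053 at 10 µM. Of the 17, VLDLR was under the floor on the 3 Ctrl-line arrays, so its SE holds no spread from that line and is too small. Against the Ctrl line at 10 µM, without the Twist DMSO array, 15 of 24 were 2-fold higher (14.8% of all genes). Of the 4 with the widest change, TRIB3, a pseudokinase that restrains ATF4 and CHOP, rose by 2.82 ± 0.52 log2 units per level (limma, adjusted p = 0.0244) and SESN2, a sestrin that dampens mTORC1, by 2.60 ± 0.52 (0.0282). CHAC1, which degrades glutathione, rose by 2.41 ± 0.30 (limma, adjusted p = 0.0129) and PPP1R15A, which brings the phosphatase to eIF2-alpha, by 1.85 ± 0.31 (0.0219). The difference of slopes between lines was called for 0 of 24 (1.54% of all genes), and with the levels coded 0, 1 and 1 for 15 (26.6%).

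Some other bZIP factors, a family whose proteins pair with each other, also changed. Of 15 ATF and CREB factors outside the 10 members that were tested, 4 rose and 1 fell in the Twist-line trend, beside 10.9% and 11.3% of all genes. CREB3L4 rose by 0.76 ± 0.14 log2 units per level (limma, adjusted p = 0.0251), CREB3 by 0.64 ± 0.12 (0.0259) and CREB3L1 by 0.41 ± 0.08 (0.0271), all 3 membrane-bound factors released by cleavage in the Golgi, while CREM, a cAMP-responsive regulator, fell (-0.58 ± 0.14, limma, adjusted p = 0.038). CREB3L1 and BATF3, which also rose, were under the floor on the 3 Ctrl-line arrays. Their SEs hold no spread from that line and are too small, so 2 of the 5 calls rest on the Twist line alone. At 10 µM 2 of the 15 were 2-fold higher and 1 lower, with a median of 0.115. ATF6 and XBP1, the factors of the other ER stress branches, had changes of 0.505 and 0.455 at 10 µM; these were named after their values were seen. Of 17 AP-1, small MAF, CNC and PAR factors tested 7 rose and 0 fell, beside the same 10.9% and 11.3% of genes, and the difference of slopes was called for 2, where it was for 1.54% of genes. 1 of these 2, FOS, was under the floor on the 3 Twist-line arrays and had signals of 6.44, 5.76 and 5.13 in the Ctrl line. Its Twist-line slope was fixed by the floor, so its call is not read as a rise in the Twist line. NFIL3, a PAR-related repressor, rose by 1.04 ± 0.15 (limma, adjusted p = 0.0169), MAFG by 0.73 ± 0.12 (0.0219), MAFF by 0.62 ± 0.12 (0.0253) and NFE2L1, which drives proteasome genes, by 0.58 ± 0.12 (0.028). In the Ctrl line 0 genes of either list were called, as were 0 of all 12478.

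**Figure D4:**
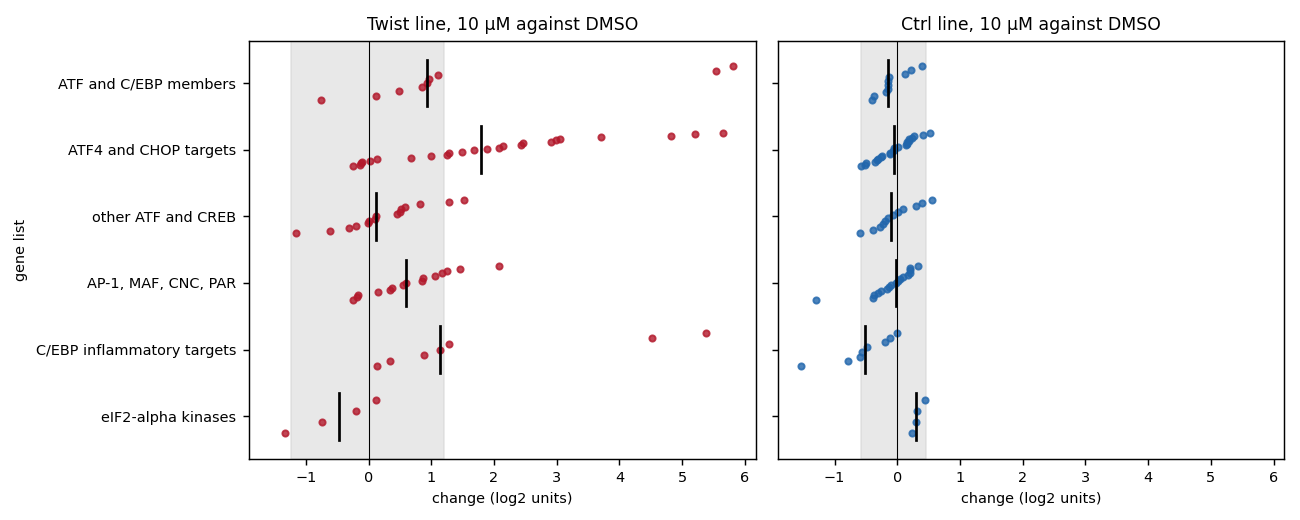
Change at 10 µM Cmp302 against DMSO (x axis, log2 units) for each measured gene of 6 lists (y axis), in the Twist line (left, red) and the Ctrl line (right, blue); black bars are list medians and the grey band spans the 5th to 95th percentile of all measured genes. In the Twist line DDIT3 and ATF3 and 16 of 24 ATF4 and CHOP targets lie above 2-fold, and in the Ctrl line the medians of the 10 members and the targets are -0.148 and -0.053.

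The genes most like DDIT3 and ATF3 over the 6 arrays were sought by Pearson's r among 1922 other genes with a range of at least 2 log2 units, since these were the only members with such a range. For DDIT3 they were PPP1R15A (r = 0.998), VLDLR, a lipoprotein receptor (0.997), and PARAIL (0.995). For ATF3 they were PPP1R15A (0.999), the small GTPase gene RAB39B (0.998) and COL5A3, a collagen chain (0.996). VLDLR and RAB39B were under the floor on the 3 Ctrl-line arrays, and COL5A3 on the Ctrl 5 µM and 10 µM arrays. For r these signals were set to the floor. PPP1R15A had signals of 6.19, 9.29 and 9.89 in the Twist line and 5.66, 5.74 and 5.54 in the Ctrl line. The 6 arrays share the Twist DMSO baseline and fall into 2 treated Twist-line arrays and 4 others, so r mainly records that contrast.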

How the data were processed

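Total RNA of 6 samples was hybridised to Affymetrix U133 Plus arrays. The deposited values are log2 signals per probe set, judged from their range and from medians of 3.69 to 3.74; the labels name no unit. The submitters' processing notes name GCOS 1.2 as a tool; background correction, summarisation and normalisation are not given in the sources used here. Of 54675 probe sets 62 controls were left out, 1801 had several symbols and 11721 none. Each array was shifted to a median log2 ratio of 0 against the mean array over the brighter probe sets (offsets -0.027 to 0.008), then floored at the 50th percentile. The probe set of highest mean stood for its gene, and symbols were updated through gene IDs.

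With 1 array per group, 2-fold (1 log2 unit) was the threshold for single differences, among genes over the floor on either array. limma 3.58.1 in R 4.3.3 (eBayes with trend, Benjamini-Hochberg over all 12478 genes that exceeded the floor on 2 or more arrays) tested line and level; p-values measure spread between these arrays, not replicates. Scripts ran in Python 3.11.15, and the fits were tested on simulated data. All members were named, with the 4 members of each other list that changed most at 10 µM in the Twist line, the markers and the 3 most similar genes. The members, lists, tests and alternatives were chosen with earlier results of these data known. The separate fit of probe sets was added after the values were seen. Precision is limited by the number of arrays.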

Additional observations from a re-analysis of the deposited data

Results flagged for a closer look

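For 5 members both Cmp302 changes ran one way in the Twist line and both ran the other way in the Ctrl line. The changes at 10 µM were 1.105 in the Twist line and -0.183 in the Ctrl line for ATF4, 0.955 and -0.153 for CEBPB, 0.485 and -0.373 for JDP2, 0.115 and -0.133 for ATF5, and -0.765 and 0.387 for ATF2. The difference of slopes was tested with limma and not called for any of them (adjusted p = 0.0807 for ATF4, 0.0678 for CEBPB, 0.0622 for JDP2, 0.593 for ATF5 and 0.115 for ATF2). With the levels coded 0, 1 and 1 the adjusted p in limma was 0.017 for ATF4, 0.0176 for CEBPB, 0.0184 for ATF2, 0.0893 for JDP2 and 0.356 for ATF5. With the 3′ contrast slope subtracted, the Twist-line changes at 10 µM were 0.968 for ATF4, 0.829 for CEBPB, 0.129 for JDP2, 0.0431 for ATF5 and -0.438 for ATF2. The contrast rose with the level in the Ctrl line and was lower on the treated Twist-line arrays than on Twist DMSO. For members picked for changes of opposite sign, the subtraction was thus set to shrink the Twist-line change, and it is not a test. No group held enough arrays for a search for outlying samples.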

How the results depend on the processing

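DDIT3 was past 2-fold at both levels in the Twist line under all alternatives run, and ATF3 under all except the one that left its brightest probe set out by suffix. In the Twist-line trend 4 members were called, 7 with the levels coded 0, 1 and 1, 0 with no filter on low values, and 0 to 5 when single arrays were left out; each fit that called 0 of them called 0% to 0.091% of all genes. The Ctrl-line trend stayed at 0 under every alternative run. The difference of trends was called for 0 members, for 6 with the levels coded 0, 1 and 1, for 1 with the median over probe sets (ATF3), 1 without the suffixed probe sets (CEBPD), 1 with each probe set fitted on its own (ATF3), and 0 to 5 when single arrays were left out. Both ATF3 calls rest on its second probe set, which was under the floor on the 3 Ctrl-line arrays and Twist DMSO. The floor fixed its Ctrl-line slope and made its SE too small, so these calls are not read as tests. Between the lines 3 members were called, 0 with the floor at the 65th percentile, 1 with no filter, 2 with the median over probe sets or without the suffixed ones (ATF3 lost), and 3 to 8 when a treatment pair was left out. With the median over probe sets 5 members were 2-fold higher at 10 µM in the Twist line and 4 between lines at 10 µM. Without the suffixed probe sets 1 was 2-fold higher between lines at 5 µM, and with the floor at the 65th percentile 0 differed under DMSO. Fewer members entered with the high floor and without the suffixed probe sets (8 of 10 in the tests), and the cause of these shifts was otherwise not tested. The labels give no replicate numbers, so no replicate block was fitted; the line test takes the treatments as pairs.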

Other observations

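Of the 4 kinases that phosphorylate eIF2-alpha, upstream of ATF4, 0 rose and 1 fell at the level of mRNA in the Twist-line trend, beside 10.9% and 11.3% of all 12478 genes. EIF2AK4 (GCN2, the sensor of uncharged tRNA) had signals of 11.56, 10.68 and 10.22 in the Twist line (DMSO, 5 µM, 10 µM) and 10.91, 11.07 and 11.34 in the Ctrl line, and fell in the Twist-line trend (-0.67 ± 0.10 log2 units per level, SE, limma, adjusted p = 0.0182). EIF2AK3 (PERK, the ER sensor) had a slope of 0.06 (adjusted p = 0.809), EIF2AK2 (PKR) of -0.37 (0.0618) and EIF2AK1 (HRI) of -0.10 (0.404) in the same limma fit. Kinase activity is not read by an array.

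Inflammatory genes known as targets of C/EBP-beta and C/EBP-delta were measured for 10 of 14 symbols in the tests, and 4 rose and 0 fell in the Twist-line trend, beside the same 10.9% and 11.3% of genes. IL6 rose by 2.69 ± 0.31 log2 units per level (limma, adjusted p = 0.0112), PTGS2, encoding cyclooxygenase 2, by 2.26 ± 0.35 (0.0189), C3, a complement component, by 0.64 ± 0.13 (0.0301) and the chemokine gene CXCL8 by 0.57 ± 0.12 (0.0293). IL6 was under the floor on the 3 Ctrl-line arrays, so its SE holds no spread from that line and is too small. PTGS2 had signals of 3.72, just above the floor, 7.33 and 8.24 in the Twist line and 8.04, 8.12 and 7.25 in the Ctrl line. C3 had 8.26, 9.18 and 9.53 in the Twist line and 11.22, 10.71 and 10.73 in the Ctrl line. IL6 and CXCL8 were higher in the Twist line at every treatment. LCN2, S100A8 and S100A9, on the same list, were under the floor on all 3 Twist-line arrays and above it on all 3 of the Ctrl line. The 3′ contrast was highest on the Twist DMSO array here too, and its part was not tested.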
